A study of Mus musculus with 16 samples.

Results

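Solute carriers, named by the symbol Slc and a family number, are membrane proteins that move nutrients, ions and metabolites across the plasma membrane, the lysosome and the inner mitochondrial membrane. The genes described here are those in the deposited table whose symbol begins with Slc and a digit, which were 165 of 9614 genes. The annotation used here holds 371 protein-coding genes of such a name, of which these 165 are a part. Slc9a3r1, Slc4a1ap and Slc7a6os follow the naming rule but are named after a binding partner or a neighbouring gene and are not carriers themselves. RNA-seq was performed on BMDM, macrophages grown from bone marrow, of male C57BL/6 mice aged 8 weeks. All animals carried LysM-Cre, a Cre recombinase under the lysozyme M promoter that is active in myeloid cells. The LysM-Cre:NELF-B wt/wt animals are called WT here, and the LysM-Cre:NELF-B fl/fl animals, which lose a floxed part of Nelfb in these cells, are called NELF-B KO (KO). NELF-B is a subunit of the complex that holds RNA polymerase near the start of genes. BMDM were left untreated (animals A and B of each genotype, 2 libraries a genotype) or treated for 1 hr with 10 ng/ml LPS or with 10 ng/ml LPS and 100 nM Dex (animals A, B and C, 3 libraries a genotype and treatment). LPS, from the outer membrane of Gram-negative bacteria, switches on inflammatory transcription through TLR4, and Dex (dexamethasone) is a synthetic ligand of the glucocorticoid receptor. The 16 libraries came from 6 animals, and libraries with the same animal number in the labels were treated as pairs. Levels are the deposited log2 CPM, and a change is a difference of log2 CPM, so that 1 on this scale is 2-fold.

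Macrophages activated through Toll-like receptors are known to take up more glucose, cystine and arginine and to move iron, zinc and phosphate between their compartments. Transport depends on where a carrier sits: Slc2a1 (GLUT1) brings glucose through the plasma membrane, Slc2a6 (GLUT6) moves hexoses across the lysosomal membrane, and family Slc25 serves the inner mitochondrial membrane. Slc11a1 (NRAMP1) exports divalent metals from the phagosome and is known as a resistance gene for intracellular bacteria.

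The libraries held 25030998 to 49730587 reads as recovered from the deposited values, and 3 reads stood for 0.0653 to 0.136 CPM. Nelfb, the targeted gene, was at 3.27 to 4.38 log2 CPM in the KO libraries and at 5.59 to 6.21 in the WT libraries, with no overlap. Macrophage markers were detected for 6 of the 7 listed genes, with Csf1r at 11.4 to 11.9, Cd68 at 10.0 to 10.9 and Lyz2 at 4.30 to 6.33 log2 CPM. Of the defining markers of T cells, B cells, dendritic cells and erythroid cells, 0 were in the table, and the neutrophil marker S100a8 (1 of 6 listed) was at 2.45 to 5.38. Of the stromal and endothelial markers, Col1a1, Col3a1 and Pecam1 were at 3.89 to 5.67, 3.89 to 5.15 and 3.98 to 6.21. The untreated library of WT animal A stood apart from the rest: its correlation with the other libraries across genes was 0.830 to 0.909, whereas the other 15 libraries correlated with each other at 0.924 to 0.993. It was the lowest or highest of the 16 libraries for 92 of the 165 Slc genes (55.8%), beside 68.6% of all genes. The changes and differences of the leading genes that rest on it are therefore given with and without it. Levels and ranges over the 16 libraries include it.

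The upstream sequences of the 5 genes with the largest LPS changes are shown first, since these genes rose together within 1 hr of LPS. Each is the 250 bases before a RefSeq transcript start (GRCm38.p6), written 5′ to 3′ on the gene's strand, and capitals mark a match to a searched motif on either strand. The motifs were AP-1 (TGANTCA, in 6.749% of the 32851 promoters of the table used), CRE (TGACGTCA, 1.546%), the glucocorticoid receptor core (ACANNNTGT, 5.835%), the ATF4 element (TGATGNAA, 3.452%), the E-box (CACGTG, 6.021%) and NF-kB (3.899%). The list of motifs was drawn up with the sequences in view, so the matches are descriptions only. The Slc7a11 window at chr3:50443614-50443863 (minus strand) held a pair of ATF4 elements, starting 66 and 47 bases before the transcript start. The Slc20a1 window at chr2:129198523-129198772 (plus strand) held a pair of E-boxes, 175 and 22 bases before the start. Another listed Slc20a1 start, with its window at chr2:129206846-129207095, had no match. Slc25a25 has 3 listed starts, and the window of the one at chr2:32424067-32424316 (minus strand, inside the span of the longer transcripts) held a CRE 150 bases before the start. The bases after that start were not found in the annotated transcripts of the gene. Its other windows held no match. The window of Slc2a6 at chr2:27027999-27028248 (minus strand) and that of Slc2a1 at chr4:119108495-119108744 (plus strand) held no match to the searched motifs.
Slc7a11: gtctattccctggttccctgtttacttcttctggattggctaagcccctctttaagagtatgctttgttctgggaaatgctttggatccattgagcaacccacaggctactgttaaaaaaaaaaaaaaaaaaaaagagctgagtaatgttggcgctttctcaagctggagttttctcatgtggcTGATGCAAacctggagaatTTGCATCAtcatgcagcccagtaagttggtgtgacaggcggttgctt
Slc20a1: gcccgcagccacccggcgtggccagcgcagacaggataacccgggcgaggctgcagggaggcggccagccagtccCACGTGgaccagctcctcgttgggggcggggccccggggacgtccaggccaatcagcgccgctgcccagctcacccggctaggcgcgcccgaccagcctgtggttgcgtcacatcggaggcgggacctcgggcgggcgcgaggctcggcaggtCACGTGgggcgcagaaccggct
Slc25a25: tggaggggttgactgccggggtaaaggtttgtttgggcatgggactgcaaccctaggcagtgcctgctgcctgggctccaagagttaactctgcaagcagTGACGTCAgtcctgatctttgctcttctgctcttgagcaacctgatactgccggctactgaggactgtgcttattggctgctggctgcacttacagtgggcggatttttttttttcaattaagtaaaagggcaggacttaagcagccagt
Slc2a6: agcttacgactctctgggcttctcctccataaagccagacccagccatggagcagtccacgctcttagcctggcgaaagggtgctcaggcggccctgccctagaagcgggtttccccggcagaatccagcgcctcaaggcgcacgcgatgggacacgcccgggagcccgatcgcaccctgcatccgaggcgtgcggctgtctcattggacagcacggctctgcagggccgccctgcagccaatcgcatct
Slc2a1: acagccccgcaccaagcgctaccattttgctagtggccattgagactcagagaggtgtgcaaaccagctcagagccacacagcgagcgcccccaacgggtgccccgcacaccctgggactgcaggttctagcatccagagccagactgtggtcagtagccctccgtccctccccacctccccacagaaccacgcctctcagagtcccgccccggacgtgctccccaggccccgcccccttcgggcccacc
Promoters were listed for 125 of the 165 genes (168 windows). An E-box was found for 22 of these genes, AP-1 for 10, NF-kB for 9, the ATF4 element for 4, the CRE for 3 and the glucocorticoid receptor core for 3. A gene was counted if any of its windows matched. The shares given above are of single promoters, so these counts cannot be set against them. The share of all genes with a match was not counted.

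In level per length of transcript (log2 CPM minus log2 of the exon length in kb, mean of 16 libraries), the highest Slc genes were Slc13a3 at 8.62, Slc11a1 at 8.14, Slc25a5 at 8.10, Slc15a3 at 8.02 and Slc6a6 at 7.84. The mean of Slc13a3, 10.4 log2 CPM, lay above every library of animals A and C (8.88 to 10.1), so its rank depends on animals B. Slc13a3 is a sodium-coupled carrier of dicarboxylates, Slc25a5 is the mitochondrial ADP/ATP carrier ANT2, Slc15a3 moves peptides and histidine out of the lysosome, and Slc6a6 takes up taurine. Slc11a1 varied little, from 9.20 to 9.49 log2 CPM over the 16 libraries. Its relative Slc11a2 (DMT1), an iron importer, was at 5.48 on the scale per length, well below Slc11a1. In this mean over all treatments the glucose carriers Slc2a1 and Slc2a6 were nearly level with each other, at 4.57 and 4.55 per length. Slc2a6 rose more than Slc2a1 with LPS, so this parity need not hold within a treatment. Slc3a2, the heavy chain that Slc7a11 needs to reach the plasma membrane, was at 6.93 per length against 3.86 for Slc7a11. The iron exporter Slc40a1 (ferroportin) was at 4.61 per length and the zinc and iron importer Slc39a14 (ZIP14) at 2.46. The median range of an Slc gene over the 16 libraries was 0.90 on the log2 scale. The untreated library of WT animal A was the lowest for 60 Slc genes and the highest for 32, so it sets an end of these ranges. The range was under 1 for 101 genes and over 2 for 14 genes, led by Slc2a6 (3.76 to 6.96 log2 CPM), Slc13a3 (8.88 to 11.997) and Slc25a25 (3.12 to 6.01).

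One hour of LPS raised carriers of mitochondrial ATP, glucose, phosphate and cystine. Of the 165 Slc genes, 10 rose and 0 fell (FDR under 0.1 over all genes and over 1.5-fold), that is 6.06% higher. Over all 9614 genes, 5.45% were called higher and 3% lower, so the share of Slc genes that rose was close to that of all genes. Slc25a25, Slc2a6, Slc20a1, Slc2a1 and Slc7a11 were called in the fit of all libraries and in each of 21 alternatives. The calls of Slc25a37, Slc4a7, Slc39a14, Slc38a2 and Slc7a2 depended on single libraries or on the fit. The fits measure RNA of whole cultures, in which fewer cells of a type and less RNA per cell cannot be told apart.

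Slc25a25 (chr2:32414487-32451445, GRCm38), a calcium-regulated carrier of ATP-magnesium and phosphate in mitochondria, changed the most. Its level was 3.57 and 3.92 log2 CPM in the untreated WT libraries (animals A and B) and 3.12 and 3.67 in the untreated KO libraries. Under LPS it was 5.96, 5.93 and 6.01 in WT animals A, B and C and 5.56, 5.74 and 5.42 in the KO animals. All LPS libraries lay above all untreated libraries. The change was 2.26 (SE 0.084, limma adjusted p = 2.12e-07), or 4.78-fold, was 2.18 without the untreated library of WT animal A, and was between 2.01 and 2.45 in the 4 animals that had both conditions. Slc25a25 shares 379 exon bases with Naif1 on the opposite strand, which was at 2.87 to 3.42 log2 CPM and changed by -0.09 with LPS; whether counting used the strand is not given in the sources used here.

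Slc2a6 (chr2:27021363-27027998) was at 5.80 and 4.28 log2 CPM in untreated WT animals A and B and at 4.36 and 3.76 in untreated KO animals A and B. Under LPS it reached 6.53, 5.93 and 6.96 in WT animals A, B and C and 6.15, 6.02 and 6.03 in the KO animals. The LPS libraries did not overlap the untreated ones, although untreated WT animal A lay far above the other untreated libraries. The change was 1.60 (SE 0.13, limma adjusted p = 4.49e-05), or 3.04-fold, with 0.73 in WT animal A, 1.65 in WT animal B, 1.79 in KO animal A and 2.26 in KO animal B. Without untreated WT animal A the change of Slc2a6 was 1.79. Slc2a1 (chr4:119108711-119137983), the main glucose importer of macrophages, was at 5.14 and 5.82 in untreated WT and at 5.95 and 5.91 in untreated KO animals A and B. It was at 6.54, 6.57 and 6.47 under LPS in WT animals A, B and C and at 6.85, 6.99 and 6.82 in the KO animals, again with no overlap. The change of Slc2a1 was 1.03 (SE 0.12, limma adjusted p = 5.54e-04), or 2.04-fold, and 0.83 without untreated WT animal A.

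Slc20a1 (chr2:129198764-129211616), the sodium-phosphate cotransporter PiT-1, was at 4.08 and 4.92 log2 CPM in untreated WT animals A and B and at 4.16 and 4.32 in untreated KO animals A and B. With LPS it was at 5.73, 5.96 and 5.87 in the WT and 5.56, 5.85 and 5.66 in the KO animals A, B and C. The change was 1.39 (SE 0.14, limma adjusted p = 1.66e-04), or 2.62-fold, exceeded 1.0 in all 4 pairs, and was 1.18 without untreated WT animal A. Slc7a11 (chr3:49892526-50443614), the xCT chain that exchanges glutamate for cystine and feeds glutathione synthesis, was at 6.15 and 6.10 in untreated WT and 6.76 and 6.69 in untreated KO animals A and B. With LPS it was at 7.61, 6.85 and 6.83 in the WT and 7.24, 7.59 and 6.82 in the KO animals A, B and C. The change of Slc7a11 was 0.91 (SE 0.15, limma adjusted p = 0.0031), or 1.87-fold, from 0.48 in KO animal A to 1.46 in WT animal A, and 0.73 without untreated WT animal A. Its partner chain Slc3a2 was at 8.27 to 8.60 log2 CPM untreated and at 8.49 to 8.86 under LPS, overlapping ranges, and its LPS change of 0.14 (SE 0.063) did not pass (limma adjusted p = 0.15).

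**Figure D1:**
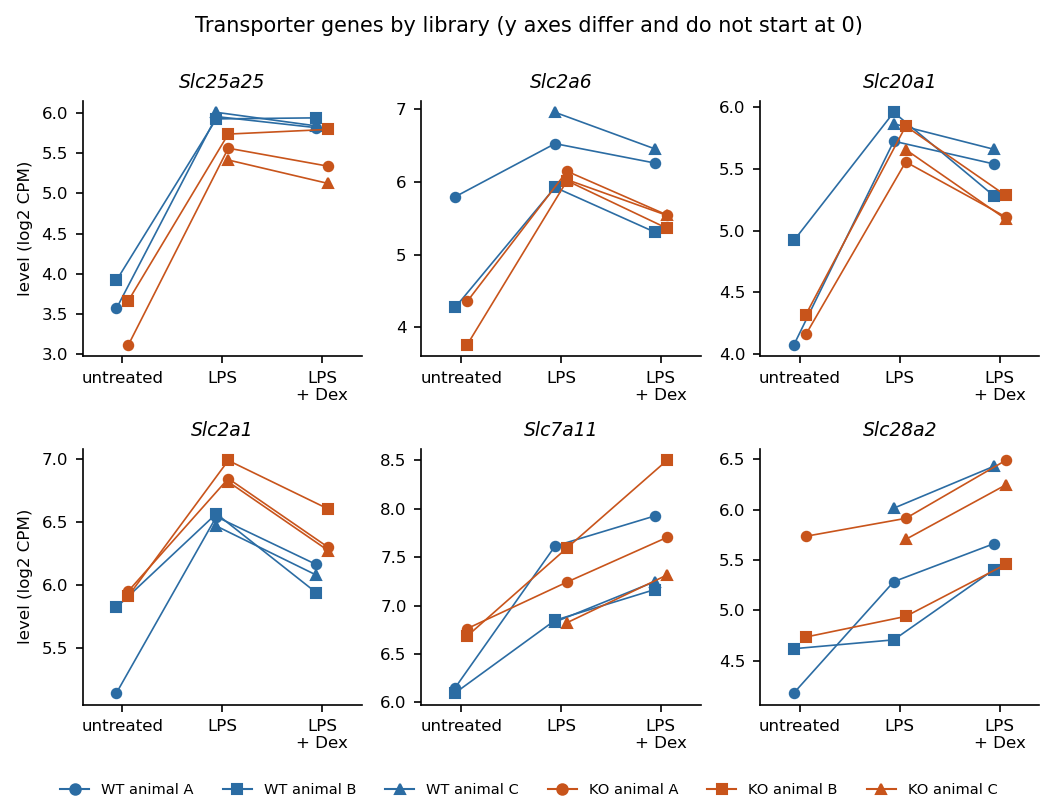
Level (log2 CPM, y axis, a different range in each panel) of 6 Slc genes in untreated, LPS and LPS + Dex libraries (x axis); each point is a library and lines join the libraries of an animal. Slc25a25, Slc2a6, Slc20a1, Slc2a1 and Slc7a11 were above every untreated library in all LPS libraries, and Slc28a2 and Slc7a11 rose from LPS to LPS + Dex in all 6 animals.

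The other 5 called genes changed by 1.5- to 1.6-fold, at or just past the 1.5-fold threshold. Slc25a37 (mitoferrin-1, the mitochondrial iron importer) rose by 0.67 (SE 0.12), from 0.41 in WT animal B to 1.16 in WT animal A. Slc39a14 changed by 0.59 (SE 0.15), with 0.17 in WT animal B and 1.13 in WT animal A. The amino acid carriers Slc38a2 (SNAT2) and Slc7a2 (CAT2, an arginine importer) changed by 0.59 each (SE 0.10 and 0.20), and Slc4a7 (NBCn1, a sodium-bicarbonate cotransporter) by 0.64 (SE 0.23). Their limma adjusted p were 0.0042 for Slc25a37, 0.0049 for Slc38a2, 0.026 for Slc39a14, 0.075 for Slc7a2 and 0.085 for Slc4a7. For each of these 5 genes the change was largest in WT animal A. Without the untreated library of WT animal A the changes were 0.48 for Slc25a37, 0.42 for Slc38a2, 0.34 for Slc39a14, 0.32 for Slc7a2 and 0.23 for Slc4a7, all under 1.5-fold. The adjusted p values without it were 8.72e-07 for Slc25a37 and for Slc38a2, 3.25e-04 for Slc39a14, 9.91e-04 for Slc4a7 and 0.14 for Slc7a2 (limma). Slc7a2 was also the Slc gene with the lowest level per length, at 0.58 to 3.03 log2 CPM.

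Without that library 6 Slc genes were called higher (3.64%, beside 4.28% of all genes) and 1 lower (0.606%, beside 2.23%). Beside the 5 genes named first these were Slc16a3 (MCT4, a lactate exporter), which had 7.38 log2 CPM in the omitted library and 5.84 to 6.82 in the other untreated ones, and Slc30a1, called lower. Slc30a1 (ZnT1, which exports zinc from the cell) is named after its values were seen. It changed by -0.54 (SE 0.090, limma adjusted p = 0.0035) with all libraries, just inside 1.5-fold, and by -0.22, -0.52, -0.51 and -0.87 in WT animals A and B and KO animals A and B. The direction of a change was the same in all 4 animals for 36 Slc genes above 0 (21.8%, beside 21.9% of all genes) and for 25 below 0 (15.2%, beside 18.7%). When each library was centred on its median gene, the second count was 47 (28.5%, beside 30.4% of all genes). Centring also moved the split of calls over all genes, from 524 higher and 288 lower to 447 and 394, and voom on the recovered reads gave 417 and 481. With voom the median LPS change of all genes moved from -0.01 to -0.10 on the log2 scale, so the changes of Slc genes are relative to such a shift.

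**Figure D2:**
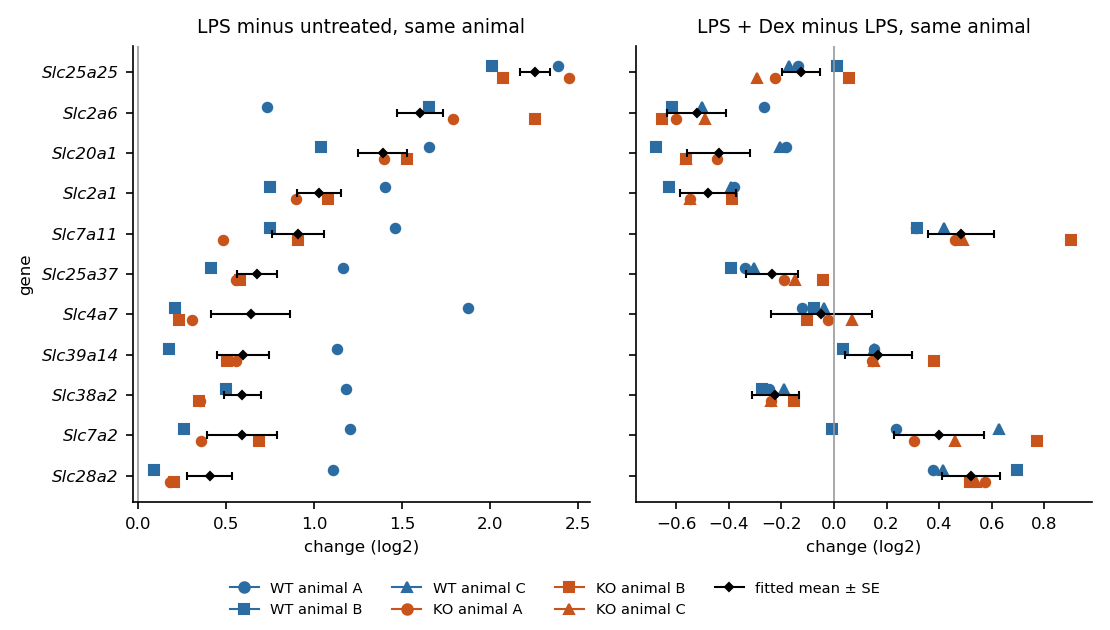
Change of each animal (log2, x axis) for the 11 Slc genes called with LPS or with Dex (y axis), LPS minus untreated on the left and LPS + Dex minus LPS on the right, with the fitted mean and SE in black. WT animal A has the largest LPS change for Slc4a7 (1.88), Slc38a2, Slc39a14, Slc7a2 and Slc25a37, while Slc25a25 lies between 2.01 and 2.45 in every animal.

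By class, the 11 glucose and hexose carriers had 2 genes called higher with LPS, Slc2a1 and Slc2a6, and a median change of -0.04. The class of amino acid and peptide carriers had 3 (Slc7a11, Slc38a2 and Slc7a2) and a median of 0.11. Its 28 genes were assigned by family number and include Slc7a6os and the nucleobase carrier Slc43a3. The 28 carriers of metals and heme had 2, Slc25a37 and Slc39a14, and a median of 0.10. The class of inorganic ion carriers (23 genes with Slc9a3r1 and Slc4a1ap) had 2, Slc20a1 and Slc4a7, and a median of 0.03. The 29 mitochondrial carriers counted outside the metal class had 1, Slc25a25, and a median of -0.04. The 19 nucleotide sugar carriers of the Golgi (median -0.06), the 8 carboxylate, 7 vitamin, 5 lipid, 4 organic ion and 3 nucleoside carriers had 0 called. Over the 165 Slc genes the median LPS change was 0.02 and over all genes -0.01. Transporters with other names, listed by symbol, were 26 further solute carriers, 28 ATP-binding cassette transporters and 37 pump ATPase subunits, and 0 of these were called with LPS.

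**Figure D3:**
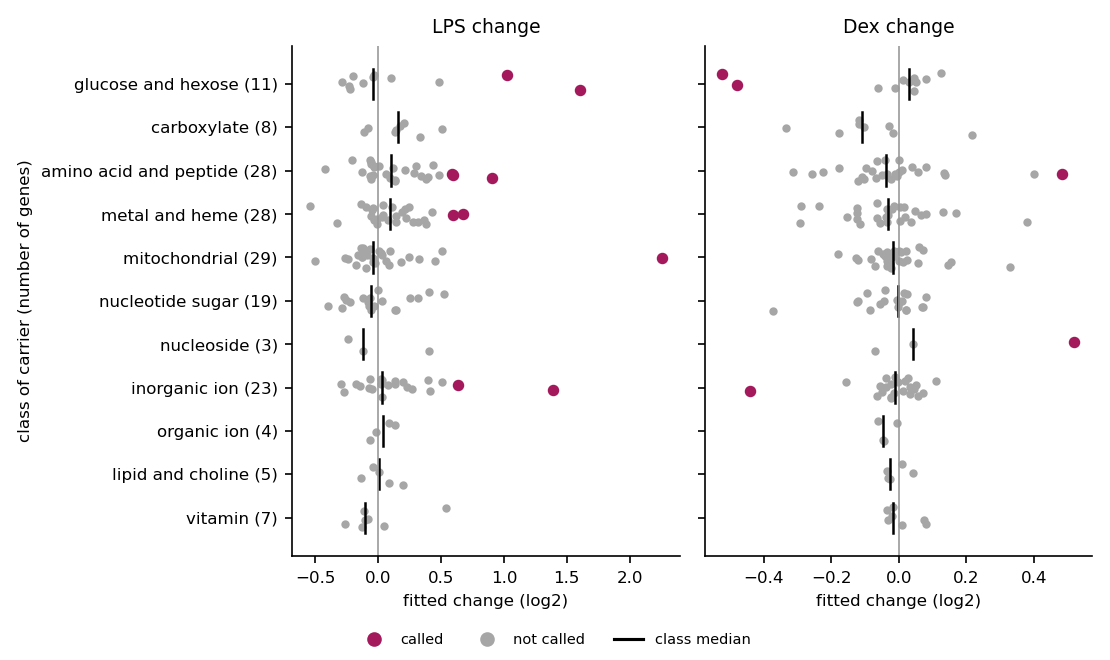
Fitted LPS change (left) and Dex change (right), both log2, of all 165 Slc genes by class of carrier (y axis, number of genes in parentheses); called genes are coloured and the black bar is the class median. The class medians lie between -0.12 and 0.16 for LPS and between -0.11 and 0.04 for Dex, and the called genes lie outside these ranges.

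Dex was compared with LPS alone in the 6 animals that had both conditions. This comparison shares the LPS libraries with the one above, so the values stand side by side and their overlap was not tested. The glucose carriers Slc2a6 and Slc2a1 and the phosphate carrier Slc20a1 fell, and the nucleoside carrier Slc28a2 and the cystine carrier Slc7a11 rose (FDR under 0.1 and over 1.3-fold). These were 2 of 165 genes higher (1.21%, beside 2.07% of all genes) and 3 lower (1.82%, beside 1.91%). The calls were less stable than those of LPS, as each was made in 7 to 13 of 21 alternatives, although the direction held in all of them. With no replicate block, that is without the pairing by animal, 0 genes were called higher and 1 lower (Slc2a1).

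Slc2a6 was at 6.26, 5.31 and 6.46 log2 CPM with LPS + Dex in WT animals A, B and C and at 5.55, 5.37 and 5.54 in the KO animals. Each animal was lower than under LPS alone, with changes of -0.27 in WT animal A to -0.65 in KO animal B. LPS and LPS + Dex libraries overlapped in the WT and did not in the KO. The change was -0.52 (SE 0.11, limma adjusted p = 0.032), or 1.44-fold lower. Slc2a1 was at 6.16, 5.94 and 6.08 with LPS + Dex in the WT and 6.30, 6.61 and 6.27 in the KO animals A, B and C, and within each genotype every LPS + Dex library lay below every LPS library. The change of Slc2a1 was -0.48 (SE 0.11, limma adjusted p = 0.036), or 1.39-fold lower. Slc20a1 was at 5.54, 5.28 and 5.66 with LPS + Dex in the WT and 5.11, 5.29 and 5.10 in the KO animals A, B and C. It was lower in 6 of 6 animals, and the change was -0.44 (SE 0.12, limma adjusted p = 0.095), or 1.36-fold lower.

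Slc28a2 (chr2:122426477-122461137), the sodium-coupled importer of purine nucleosides CNT2, was at 5.29, 4.71 and 6.02 log2 CPM under LPS in WT animals A, B and C and at 5.91, 4.94 and 5.71 in the KO animals. With LPS + Dex it was at 5.66, 5.40 and 6.43 in the WT and 6.49, 5.46 and 6.25 in the KO animals. Animals differed more than treatments, and animal B of both genotypes was lowest under LPS, yet each animal rose, by 0.38 to 0.70. The change was 0.52 (SE 0.11, limma adjusted p = 0.031), or 1.43-fold. A gene of the same family, Slc28a2b, lies next to it, and how unique reads were split between them was not tested. Slc7a11 was at 7.92, 7.17 and 7.25 with LPS + Dex in the WT and 7.70, 8.50 and 7.31 in the KO animals A, B and C. It rose in 6 of 6 animals, by 0.31 in WT animal A to 0.90 in KO animal B, with a change of 0.48 (SE 0.13, limma adjusted p = 0.077), or 1.40-fold. Its partner Slc3a2 was lower in 6 of 6 animals, with a change of -0.26 (SE 0.053, limma adjusted p = 0.028), which is under the 1.3-fold limit.

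Slc25a25, the gene with the largest LPS change, was at 5.12 to 5.94 with LPS + Dex, and its Dex change of -0.13 (SE 0.072) did not pass (limma adjusted p = 0.80). Among genes under the fold limit, named after their values were seen, Slc35f6 changed by -0.37 (SE 0.043, limma adjusted p = 0.0011) and was lower in 6 of 6 animals. The magnesium carrier Slc41a2 changed by 0.38 (SE 0.075, limma adjusted p = 0.022) and was higher in 6 of 6. It was called with libraries centred on the median gene and with voom, but not with log2(CPM + 1) or without the replicate block. All 6 animals were above 0 for 13 Slc genes (7.88%, beside 9.16% of all genes) and below 0 for 24 (14.5%, beside 10.4%). The median Dex change was -0.02 over the Slc genes and -0.01 over all genes. Of the transporters with other names, Abcd2, a peroxisomal fatty acid transporter, rose by 0.48 (SE 0.087, limma adjusted p = 0.014) and Atp10d, a lipid flippase, by 1.07 (SE 0.20, limma adjusted p = 0.014), and 0 fell.

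KO and WT animals were compared within each treatment, with an FDR under 0.05 and over 1.5-fold as the limits. In untreated, LPS and LPS + Dex libraries 0 Slc genes were called by limma on the deposited values, beside 0% of all genes. Voom also called 0 Slc genes. Nelfb itself, with a difference of -2.02 under LPS and no overlap, was among the genes not called by limma. This departs from the study, which used edgeR on counts. It reported genes that differed between KO and WT under LPS + Dex at 1.5-fold and an FDR p under 0.05. Its Methods name an unadjusted p under 0.05 for the KO experiment. With the animal letter as a batch block 0 Slc genes were called as well. In the labels a shared printed code ties the WT and KO animals only for letter B. The labels of animals C share a style (an S and a number) but no code, and animals A are the remaining pair. At an unadjusted p under 0.05 the counts were 1 untreated (Slc18a1, 0.606%, beside 0.385% of all genes), 17 under LPS (10.3%, beside 8.44%) and 20 under LPS + Dex (12.1%, beside 11.3%). For 5 Slc genes the KO libraries lay above the WT libraries without overlap in all 3 treatments (3.03%, beside 1.88% of all genes), and for 3 they lay below (1.82%, beside 3.45%). Without the untreated library of WT animal A these counts were 10 (6.06%, beside 3% of all genes) and 7 (4.24%, beside 4.9%). Each treatment comes from the same animals, so these are not 3 independent observations.

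Slc18a1, the vesicular monoamine transporter VMAT1, had the largest mean difference of these 8 genes. It was at 1.34 to 1.81 log2 CPM in the 8 WT libraries and at 2.32 to 2.68 in the 8 KO libraries. KO exceeded WT by 1.10 untreated, 0.96 under LPS (SE 0.17) and 0.82 under LPS + Dex (SE 0.17), with limma adjusted p = 0.25 under LPS and 0.18 under LPS + Dex. Without untreated WT animal A, the library where Slc18a1 was lowest, the untreated difference was 0.86. In a single fit of all libraries with the animal as a random effect the adjusted p were 0.037 and 0.049 (limma). Its span overlaps Atp6v1b2 on the opposite strand, which was far higher at 9.28 to 9.83 log2 CPM, with 0 shared exon bases, and which differed by 0.11, -0.11 and -0.17 between KO and WT in the 3 treatments.

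The other genes that were higher in the KO were Slc9a3r1, Slc6a6, Slc2a1 and Slc43a2. Slc9a3r1, which encodes the scaffold protein NHERF1, was at 6.92 to 7.32 in the WT and 7.35 to 7.82 in the KO, with differences of 0.48, 0.50 and 0.45 in untreated, LPS and LPS + Dex libraries. The taurine importer Slc6a6 was at 10.2 to 10.6 in the WT libraries other than untreated animal A, where it was at 9.25, and at 10.6 to 10.8 in the KO. Its differences were 0.76, 0.33 and 0.34, and the first was 0.12 without untreated WT animal A. The glucose importer Slc2a1 differed by 0.45, 0.36 and 0.33, the first being 0.11 without untreated WT animal A. The amino acid carrier Slc43a2 (LAT4) differed by 0.20, 0.28 and 0.34, the first being 0.03 without that library.

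Lower in the KO were Slc25a4 (the ADP/ATP carrier ANT1) with differences of -0.57, -0.26 and -0.25, the heme carrier Slc48a1 (HRG1) with -0.29, -0.20 and -0.26, and Slc11a1 with -0.22, -0.16 and -0.17 in untreated, LPS and LPS + Dex libraries. Without untreated WT animal A the untreated difference of Slc25a4 was -0.24. With single untreated libraries left out, that of Slc48a1 lay between -0.38 and -0.205 and that of Slc11a1 between -0.27 and -0.165. Slc11a1 was at 9.37 to 9.49 log2 CPM in the WT and at 9.20 to 9.34 in the KO, a narrow but complete separation. Slc48a1 shares 29 exon bases with Hdac7 on the opposite strand, which was at 3.84 to 4.18.

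Among genes named after their values were seen, the mitochondrial pyrimidine nucleotide carrier Slc25a33 was higher in the KO by 0.59 (SE 0.11) under LPS and 0.62 (SE 0.11) under LPS + Dex. Its WT levels were 3.13 to 3.34 and its KO levels 3.71 to 3.96 over these 12 libraries, without overlap. In untreated cells the WT was at 3.56 (animal A) and 2.57 (animal B) and the KO at 3.47 and 3.06, a difference of 0.20 that was 0.69 without untreated WT animal A. The purine nucleobase carrier Slc43a3 had the largest negative differences, -0.97 (SE 0.34) under LPS and -1.21 (SE 0.33) under LPS + Dex. Under LPS its level was 4.84 and 5.20 in WT animals A and C and 3.78 in WT animal B, beside 3.407 to 3.796 in the KO, so that WT animal B lay among the KO animals. Slc43a3 was called lower in the KO under LPS and under LPS + Dex only when the library of WT animal B was left out. That animal had the WT level closest to the KO, so its omission favours a call and is no support for a difference. With all libraries, neither Slc25a33 nor Slc43a3 passed the correction over all genes (limma adjusted p = 0.25 and 0.17 for Slc25a33, 0.45 and 0.23 for Slc43a3). The difference of Slc25a25 was -0.39 (SE 0.11, limma adjusted p = 0.30) under LPS.

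**Figure D4:**
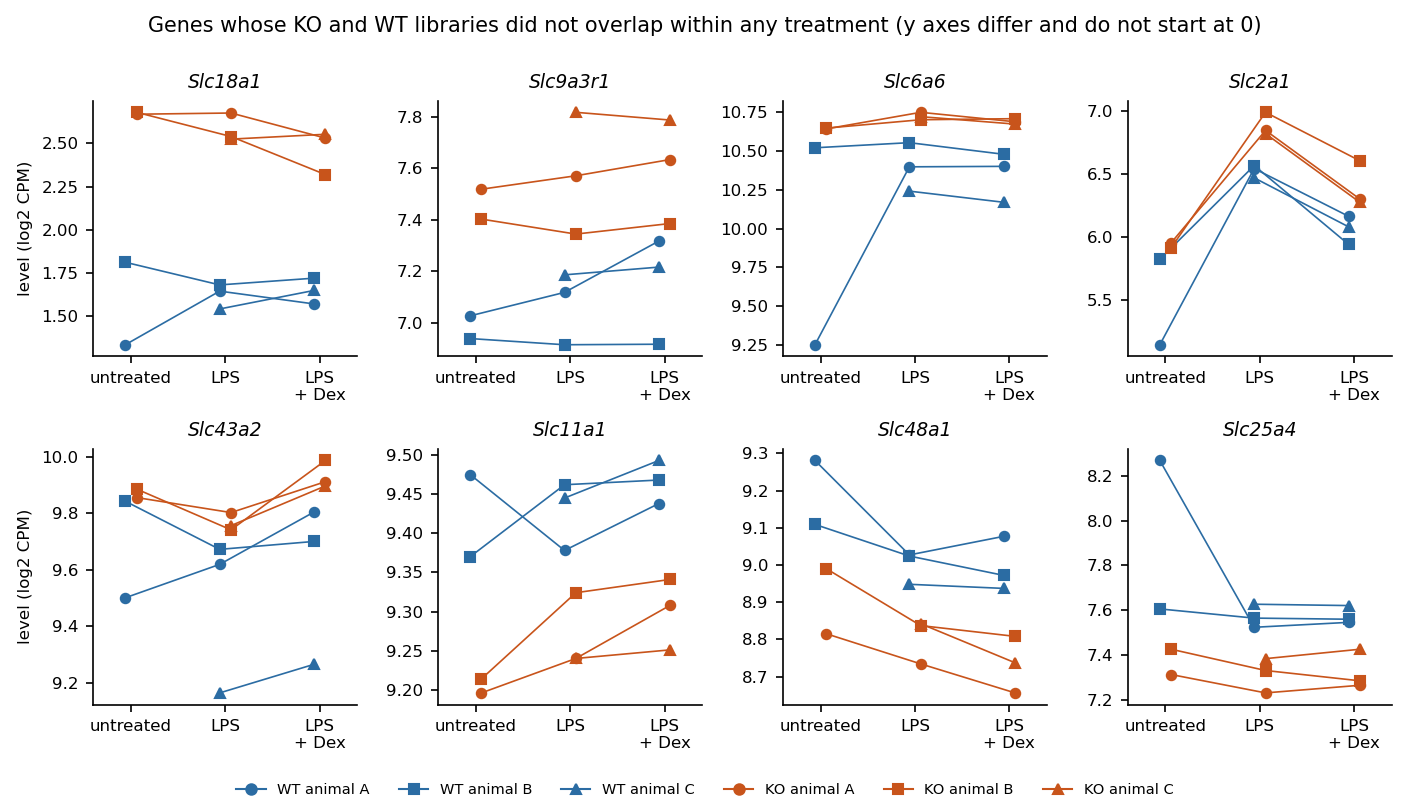
Level (log2 CPM, y axis, a different range in each panel) of the 8 Slc genes whose KO and WT libraries did not overlap in untreated, LPS and LPS + Dex cells (x axis); each point is a library and lines join the libraries of an animal. Slc18a1 lies at 2.32 to 2.68 in all KO libraries and at 1.34 to 1.81 in all WT libraries, and the untreated library of WT animal A is far from the other WT libraries for Slc6a6, Slc2a1 and Slc25a4.

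The difference between genotypes in the response itself was tested as an interaction. For LPS and for Dex 0 Slc genes passed (beside 0% of all genes). At an unadjusted p under 0.05 the LPS change differed for 4 Slc genes (2.42%, beside 4.12% of all genes) and the Dex change for 1 (0.606%, beside 0.281%). The 4 genes were Slc2a6, whose LPS change was 0.80 larger in the KO (SE 0.26, limma adjusted p = 0.41), and Slc25a32, Slc25a24 and Slc19a2, whose LPS changes differed by -0.58, -0.52 and -0.50 (KO minus WT). Without untreated WT animal A these were 0.43 for Slc2a6 (limma adjusted p = 0.77) and -0.23, -0.15 and -0.27. The single gene for Dex was the vitamin carrier Slc5a6 (-0.44, SE 0.18, limma adjusted p = 1).

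Several Slc genes followed the animals rather than the treatment or the genotype. The labels of animals B of both genotypes share a printed code on at least 1 library each. For 9 Slc genes all 6 libraries of animals B lay above the other 10 libraries (5.45%, beside 5.28% of all genes), and for 6 they lay below (3.64%, beside 5.01%). The first share was close to that of all genes and the second was below it, so the pattern is not particular to Slc genes. Slc13a3, the Slc gene with the highest mean level per length over the 16 libraries, was at 11.8 to 11.997 log2 CPM in animals B of both genotypes. It was at 8.88 to 10.1 in the rest. Its LPS change was -0.08 (SE 0.061) and its Dex change -0.12 (SE 0.052). Slc4a3, an anion exchanger, was at 2.56 to 3.23 in animals B and at 0.84 to 1.92 in the others, and Slc7a5 (LAT1, a carrier of large neutral amino acids) at 2.46 to 2.78 against 0.47 to 2.15. The other genes that were higher in animals B were Slc35g1, Slc39a10, Slc39a13, Slc45a4, Slc9a8 and Slc9a9. Lower in animals B were Slc27a1 (a fatty acid transport protein, 6.65 to 6.77 against 7.17 to 7.55), Slc44a2 (5.94 to 6.24 against 6.44 to 6.75), Slc2a3 (GLUT3, 2.82 to 3.28 against 3.32 to 3.73), Slc6a12, Slc22a4 and Slc35b3. These genes were found by their values and are not tested, and animal, culture and any shared handling cannot be told apart.

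**Figure D5:**
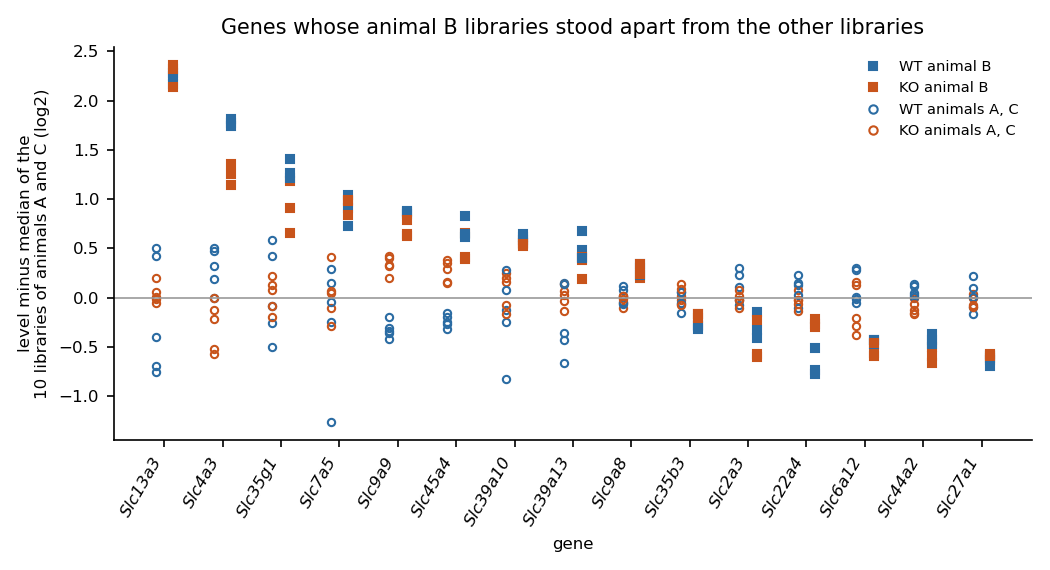
Level of 15 Slc genes (x axis) in each library, as the difference (log2, y axis) from the median of the 10 libraries of animals A and C; filled squares are animals B and open circles animals A and C. The 6 libraries of animals B lie above all others for 9 genes, led by Slc13a3, and below all others for 6, among them Slc27a1.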

How the data were processed

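Total RNA of BMDM was polyA selected and sequenced as 50-base pairs. CLC Bio Genomic Workbench was used by the authors for mapping to mm10 and for counts of unique exon reads, edgeR for scaling by the weighted trimmed mean, and the log2 CPM of each library were deposited. CASAVA 1.8 and FastQC are named in the submitters' processing notes. Neither the filter that left 9614 genes nor the strand setting is given in the sources used here. The 18 columns of the authors' P and FDR values were not used, and 0 columns of per-sample values were left out.

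The log2 CPM as deposited, without a pseudocount or further filter, were fitted in limma 3.58.1 (R 4.3.3) with lmFit and a trended eBayes. Benjamini-Hochberg adjustment covered all 9614 genes. Tables and plots were made with Python 3.11.15, pandas 2.3.3, numpy 2.4.6 and matplotlib 3.10.9. The values are not counts, so the count test of the study was not run; voom was run on recovered reads instead, as an alternative. LPS and Dex changes came from a single fit of 16 libraries with the animal as a fixed term, as means over the genotypes, and interactions from the same fit. KO minus WT was fitted within each treatment. Limits follow those that the study states (FDR under 0.1 with over 1.5-fold for LPS and 1.3-fold for Dex, FDR under 0.05 with over 1.5-fold for genotype). The pairing comes from animal numbers in the labels: deviations of LPS and LPS + Dex libraries of an animal correlated at 0.78 to 0.94, and those of untreated and LPS libraries at 0.19 for WT animal A, 0.56 for WT animal B, 0.74 for KO animal A and 0.82 for KO animal B. Replicates are separate animals.

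Reads were recovered from the equal steps of the low values, of which 100.0% under 3 CPM came out whole within 0.2 reads. Floors of 3 reads cover counting error only. Positions and exon lengths are from GENCODE vM21 (GRCm38, the assembly mm10 also names), matched for 165 of 165 Slc genes, and promoters from RefSeq. Of the Slc genes, 19 overlap another gene of the table and 12 share exon bases with one.

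The genes, classes, markers and motifs were chosen with earlier results of these data known. Classes follow the family number, except that the mitochondrial iron carriers Slc25a28 and Slc25a37 were put with the metals and family 5 was split by its members. Named genes are those called with LPS or Dex, those whose genotypes did not overlap in all 3 treatments, the 5 with the highest level per length, and the pairs Slc2a1 and Slc2a6, Slc7a11 and Slc3a2, Slc11a1 and Slc11a2, and Slc40a1 and Slc39a14. Alternatives were no replicate block, a batch block by animal letter, a single fit for the genotypes, a filter on a mean above 1 log2 CPM, log2(CPM + 1), centring on the median gene, voom on recovered reads, other limits and leaving out each library. The counts of genes without overlap or of one sign under other settings were added after seeing the data.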

Additional observations from a re-analysis of the deposited data

How the results depend on the processing

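With the animals as a replicate block, which is the design reported, 10 Slc genes were called higher and 0 lower with LPS, and 2 higher and 3 lower with Dex. With no replicate block these were 6 and 1 for LPS and 0 and 1 for Dex. Centring each library on its median gene gave 6 higher and 1 lower with LPS, and voom on recovered reads 5 and 1. Over all 9614 genes the LPS calls were 524 higher and 288 lower with the block and 420 and 220 without it. Centring gave 447 and 394, and voom 417 and 481. The Dex calls over all genes were 199 and 184 with the block and 131 and 103 without it. For Slc genes, an FDR under 0.05 with no fold minimum gave 19 higher and 7 lower with LPS. With Dex it gave 5 lower, and Slc28a2 and Slc41a2 higher. All genes were not counted at that limit. Slc genes below 0 in every animal with LPS numbered 47 after centring. For KO minus WT, the single fit with the animal as a random effect called 1 gene higher under LPS and 1 under LPS + Dex. At an unadjusted p under 0.05 and over 1.5-fold there was 1 higher untreated, 2 higher and 1 lower under LPS, and 2 higher and 1 lower under LPS + Dex. For these genotype counts all genes were not counted, so they are not read as results about Slc genes.

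Leaving out single libraries gave 6 to 26 genes higher and 0 to 3 lower with LPS, 0 to 3 higher and 0 to 4 lower with Dex, 0 to 45 and 0 to 76 for the genotype difference in the LPS change, 0 to 33 and 0 to 10 for KO minus WT untreated, 0 to 1 lower under LPS and 0 to 2 lower under LPS + Dex. The upper ends for LPS higher, for the interaction and for the untreated comparison came without the untreated library of WT animal B. That leaves the untreated library of WT animal A as the only untreated WT library, and a lone library is assumed to vary like the other groups. With LPS, the calls over all genes were also the most numerous without the untreated library of WT animal B. Shares of all genes are not given beside the counts with a library left out in this paragraph, so none of these is read as a result about Slc genes. With LPS, 6 genes were called higher without the untreated, the LPS or the LPS + Dex library of WT animal A or the untreated library of KO animal B. With Dex, 0 genes were called higher without the LPS or the LPS + Dex library of KO animal B, and 0 lower without the former. The genes called lower in the KO came without the library of WT animal B (Slc43a3 under LPS, Slc43a3 and Slc2a6 under LPS + Dex). For these genes that animal had the WT level closest to the KO, so the calls depend on its omission. The 10 genes without overlap between genotypes above and 7 below were reached without untreated WT animal A (5 to 10 and 3 to 7 in all). Among the values of single genes, 480 kept their direction and side of the threshold, 101 lost the call, 6 gained it and 0 reversed. These values pool the LPS and Dex calls with genotype differences that were not called to begin with. Only the LPS and Dex calls could be lost, so all 101 losses fell on them. The 480 are therefore no measure of how stable those calls were. The lowest depth was 25030998 reads, and the least covered of the genes called with LPS was Slc7a2, at 0.58 to 3.03 log2 CPM.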
